A study of Mus musculus with 11 samples.

Results

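The fibroblast growth factor (FGF) receptor genes and FGF ligand genes followed here in mPFC CRF1+ neurons are 10 of the 53465 genes counted. Other genes of the FGF family are described further below. They were picked by gene symbol: the receptor tyrosine kinases Fgfr1, Fgfr2 and Fgfr3, the kinase-less receptor Fgfrl1, the secreted ligands Fgf1, Fgf2 and Fgf9, and the FGF homologous factors Fgf12, Fgf13 and Fgf14. All 10 passed the low-count filter and were tested among 17093 genes. RNA was sequenced from cells sorted by fluorescence from the medial prefrontal cortex (mPFC) of adult male CRF1:GFP mice, a reporter line in which cells with corticotropin releasing factor receptor 1 carry green fluorescent protein. The 11 libraries hold 1 mouse each, 6 naïve and 5 withdrawn. Withdrawn mice had breathed ethanol vapor intermittently for 5 to 6 weeks, with injections of ethanol and pyrazole, an inhibitor of alcohol dehydrogenase, and were taken after 5 to 8 days of forced abstinence. Naïve mice had received pyrazole in saline and air in the same chambers over the same time, so both groups carried the reporter and received pyrazole. The comparison asks which transcripts of these neurons differ after withdrawal from chronic ethanol.

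Secreted FGFs bind tyrosine kinase receptors at the cell surface together with heparan sulfate, and the receptors signal through adaptor proteins to the Ras and MAP kinase cascade. Fgfrl1 binds ligand but has no kinase domain. The FGF homologous factors are not secreted. They stay in the cell, where they bind the tails of voltage-gated sodium channels and tune the excitability of neurons. In the cortex, Fgfr1 is known from neurons and glia, whereas Fgfr2 and Fgfr3 are best known from glial cells.

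Several facts about the libraries bear on all the values. For 3 withdrawn mice (numbers 3, 4 and 5) another label reads control, and the design text gives 5 control and 6 ethanol animals. The fold change of each of the 10 genes is therefore also given without these 3 mice, which leaves only withdrawn mice 1 and 2. The gene counts of a mouse summed to between 7351567 and 22244869, so that 3 counts, the floor used here, correspond to 0.135 to 0.408 CPM, counts scaled to a common library size. Counting intervals and floors cover counting error only, since cDNA was amplified from 160 pg of RNA. Naïve mouse 5 had the fewest detected genes, 15585, against 22981 to 30626 in the other naïve and 22551 to 31830 in the withdrawn mice. The share of reads on no annotated exon was 5.77% in naïve mouse 5, 39.6% in withdrawn mouse 2 and 48.1% in withdrawn mouse 4. In the other mice it was 13.3% to 31.5%. Markers of glutamatergic neurons were present in every mouse, with a summed level of 1750 to 3116 CPM in naïve and 1340 to 2770 CPM in withdrawn mice, and none of the 6 was at 0 in any mouse. Markers of fibroblasts summed to 0.0677 to 70.9 CPM in naïve mice and to 11.4 to 1317 CPM in withdrawn mice. Withdrawn mouse 2, at 11.4 CPM, stood apart from the other 4 withdrawn mice in these markers and, as described below, in Fgfr1. Each mouse is an animal of its own, so p-values measure the spread between mice. In RNA pooled from sorted cells, fewer cells of a type and less RNA per cell cannot be told apart.

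Positions are given on GRCm38. Fgfr1 (ENSMUSG00000031565) spans chr8:25513654-25575718 on the plus strand, Fgfr2 (ENSMUSG00000030849) chr7:130162451-133123350 on the minus strand and Fgfr3 (ENSMUSG00000054252) chr5:33721674-33737068 on the plus strand. Fgfrl1 (ENSMUSG00000008090) shares chromosome 5 with Fgfr3, at chr5:108692382-108706924. Among the secreted ligands, Fgf1 carries the identifier ENSMUSG00000036585, and Fgf2 (ENSMUSG00000037225) lies at chr3:37348346-37410108 and Fgf9 (ENSMUSG00000021974) at chr14:58070547-58112720. The homologous factors are long genes, with Fgf12 (ENSMUSG00000022523) at chr16:28160098-28753068, Fgf13 (ENSMUSG00000031137) at chrX:59062145-59568071 and Fgf14 (ENSMUSG00000025551) at chr14:123977907-124677127. Counts are per gene over its exons, so values do not separate the splice forms of the receptors or of the homologous factors. Exons of Fgfr3 share 13.9% of their bases with the opposite-strand gene G630022F23Rik, and exons of Fgf2 share 13.2% with Gm43439 and Nudt6. Whether counting used strand is not given in the sources used here, so reads shared with G630022F23Rik and Nudt6, on the opposite strand, are uncertain. Gm43439 shares 255 bases with Fgf2 on the same strand, where strand cannot separate the reads. The share of overlapped bases was 5.26% or less for the other 8 genes.

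RefSeq start sites (GRCm38.p6) were listed for 8 of the 10 genes, with 15 starts in all. Of these, 4 lie within 10 bases of a GENCODE transcript start and have 250 upstream bases free of annotated exons. They are shown because they meet both conditions. They belong to the kinase-less receptor (Fgfrl1, at low level), a secreted ligand (Fgf9) and the most abundant homologous factors (Fgf12 and Fgf13). No tyrosine kinase receptor is among them. Capitals mark GC boxes, the letters GGGCGG on either strand, where CCGCCC is the reverse complement.
Fgfrl1, chr5:108693979-108694228, plus strand: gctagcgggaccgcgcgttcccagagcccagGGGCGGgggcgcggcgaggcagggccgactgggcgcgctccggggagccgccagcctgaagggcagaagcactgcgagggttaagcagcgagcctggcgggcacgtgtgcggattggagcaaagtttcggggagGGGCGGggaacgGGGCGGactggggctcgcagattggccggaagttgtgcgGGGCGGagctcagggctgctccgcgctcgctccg
Fgf9, chr14:58072436-58072685, plus strand: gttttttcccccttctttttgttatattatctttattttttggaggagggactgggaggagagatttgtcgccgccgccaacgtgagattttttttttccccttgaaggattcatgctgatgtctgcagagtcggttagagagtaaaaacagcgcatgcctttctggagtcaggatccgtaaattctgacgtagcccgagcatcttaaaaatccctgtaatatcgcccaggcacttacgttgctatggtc
Fgf12, listed start 2, chr16:28564952-28565201, minus strand: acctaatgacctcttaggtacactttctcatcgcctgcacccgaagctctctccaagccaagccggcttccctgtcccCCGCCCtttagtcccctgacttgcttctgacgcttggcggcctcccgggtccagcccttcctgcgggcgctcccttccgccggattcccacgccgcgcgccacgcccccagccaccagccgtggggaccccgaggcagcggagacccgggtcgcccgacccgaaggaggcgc
Fgf13, listed start 4, chrX:59134437-59134686, minus strand: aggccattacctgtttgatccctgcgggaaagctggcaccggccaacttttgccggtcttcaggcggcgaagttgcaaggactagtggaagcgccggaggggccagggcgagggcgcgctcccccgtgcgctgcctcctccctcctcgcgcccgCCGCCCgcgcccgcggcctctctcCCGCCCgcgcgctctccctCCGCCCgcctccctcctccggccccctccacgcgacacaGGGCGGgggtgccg
The Fgfrl1 and Fgf13 stretches hold 4 GC boxes each, the Fgf12 stretch 1 and the Fgf9 stretch 0. Base composition follows the same division, with 73.6% and 74.4% G and C in the Fgfrl1 and Fgf13 stretches, 69.2% in Fgf12 and 44.8% in Fgf9, against a median of 52.4% over 32851 promoters of the same length. Over all 15 starts, 10 held a GC box and 0 held TATAAA on either strand, against 32.7% and 12.4% of all promoters. A match is a run of letters and not a bound site, and the deposited counts do not say which start was used.

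Among the receptors, Fgfr1 was higher in most withdrawn mice. Fgfr1 was at 7.52, 18.2, 9.66, 8.10, 8.13 and 16.1 CPM in naïve mice 1 to 6 and at 90.1, 11.2, 67.2, 109 and 28.9 CPM in withdrawn mice 1 to 5. The other 4 withdrawn mice were above every naïve mouse, and withdrawn mouse 2 lay within the naïve range. Naïve mice averaged 11.3 ± 4.64 CPM (SD, n = 6), withdrawn mice averaged 61.4 ± 41.0 CPM (SD, n = 5), and the fitted difference was 5.43-fold. The log2 fold change was 2.44 (SE 0.49, 95% interval 1.38 to 3.50), with an unadjusted p of 2.26e-04 and an adjusted p of 0.102 in edgeR's quasi-likelihood test, so that Fgfr1 was not called. DESeq2, the test of the study's methods, called it with a log2 fold change of 2.48 and an adjusted p of 4.53e-04. With each of the 11 mice left out in turn, the adjusted p in edgeR ranged from 0.00503 to 0.365. The lowest value, at a log2 fold change of 2.69, came without withdrawn mouse 2, the withdrawn mouse within the naïve range. Fgfr1 was not called in edgeR when any other single mouse was left out. Leaving out withdrawn mice 3, 4 and 5 left only withdrawn mice 1 and 2, at 90.1 and 11.2 CPM. The log2 fold change was then 2.14, with an unadjusted p of 0.00603 and an adjusted p of 0.647 in edgeR.

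Fgfr2 had the largest fitted fold change of the 10 genes and a wider spread. It was at 0.107, 5.44, 0.750, 0.874, 0 and 11.1 CPM in naïve mice 1 to 6 and at 58.6, 5.60, 10.7, 29.6 and 8.77 CPM in withdrawn mice 1 to 5. The groups overlapped, since withdrawn mice 2, 3 and 5 lay below naïve mouse 6. The zero in naïve mouse 5 allows up to 0.191 CPM. The log2 fold change was 2.88 (SE 1.12, 95% interval 0.47 to 5.30), with an unadjusted p of 0.0227 and an adjusted p of 0.547 in edgeR. Withdrawn mouse 1 alone held 51.7% of the summed withdrawn level, and without it the log2 fold change was 2.13 with an unadjusted p of 0.0952 in edgeR. Without naïve mouse 6, the highest naïve mouse, it was 3.95 with an unadjusted p of 0.00486 and an adjusted p of 0.386. Without withdrawn mice 3, 4 and 5, which left mice 1 and 2 at 58.6 and 5.60 CPM, it was 3.36. The unadjusted p was then 0.0411 and the adjusted p 0.789 in edgeR.

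Fgfr3 and Fgfrl1 did not pass the test. Fgfr3, which like the other kinases binds several FGFs, was at 1.29, 10.4, 6.47, 3.61, 0 and 17.3 CPM in naïve mice and at 19.7, 1.23, 20.7, 24.2 and 4.03 CPM in withdrawn mice. Withdrawn mice 1, 3 and 4 were above all naïve mice, and mice 2 and 5 were within the naïve range. The Fgfr3 log2 fold change was 1.10 (SE 1.01, 95% interval -1.07 to 3.27), with an adjusted p of 0.891 in edgeR. Fgfrl1 was at 0, 2.14, 0.281, 0, 5.82 and 1.05 CPM in naïve mice and at 7.06, 0, 4.34, 3.20 and 2.48 CPM in withdrawn mice. Fgfrl1 had no more than 98 counts in any mouse and 0 counts in 3, and its groups overlapped. Its log2 fold change was 1.13 (SE 1.33, 95% interval -1.74 to 4.00), with an adjusted p of 0.921 in edgeR. Without naïve mouse 5, the highest naïve mouse for this gene, the log2 fold change was 2.26 with an unadjusted p of 0.114 in edgeR, and without withdrawn mouse 1 it was 0.68. With limma voom it was 3.21, with an unadjusted p of 0.0249 and an adjusted p of 0.451. Without the 3 mice with a second label, Fgfr3 had a log2 fold change of 0.66 and Fgfrl1 one of 1.17.

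Fgfr1 supplied, on average, the largest share of kinase receptor transcripts in both groups. Per kilobase of exon, the sum of Fgfr1, Fgfr2 and Fgfr3 was 2.35 ± 1.74 CPM (SD, n = 6) in naïve mice, ranging from 0.823 to 5.12, and 10.4 ± 7.23 CPM (SD, n = 5) in withdrawn mice, ranging from 1.85 to 17.6. Fgfr1 supplied 61.4% ± 24.6 of this sum in naïve mice and 61.6% ± 5.82 in withdrawn mice. The share of Fgfr2 was 7.58% ± 8.16 in naïve and 21.5% ± 9.32 in withdrawn mice, and that of Fgfr3 31.1% ± 18.3 and 16.9% ± 6.75, with overlapping ranges for both. Naïve mouse 5 had reads of Fgfr1 only, so its share of 100% rests on 120 counts. The shares were not tested, because those of 1 mouse sum to a fixed total.

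**Figure D1:**
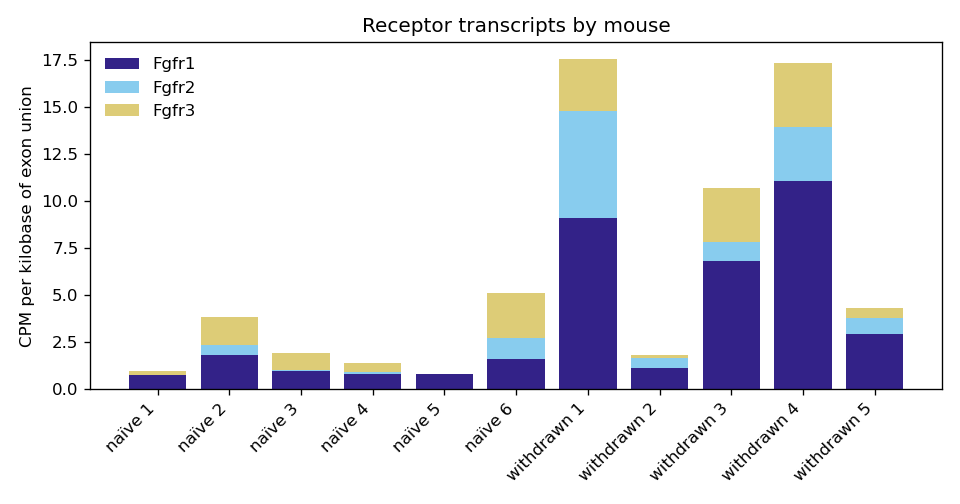
Level of the 3 kinase receptors in each mouse, in CPM per kilobase of exon union, stacked as Fgfr1, Fgfr2 and Fgfr3. Withdrawn mice 1, 3 and 4 have the highest sums, and withdrawn mouse 2, at 1.85, lies among the naïve mice.

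Of the secreted ligands among the 10 genes, Fgf9 was the most abundant and none passed the test. Fgf9, a ligand made by neurons, was at 21.9, 20.8, 20.6, 9.67, 20.7 and 6.11 CPM in naïve mice and at 18.0, 6.49, 12.4, 13.2 and 11.9 CPM in withdrawn mice. Of the naïve mice, 4 were above all withdrawn mice and 2 were among or below them. The log2 fold change of Fgf9 was -0.42 (SE 0.42, 95% interval -1.32 to 0.47), with an adjusted p of 0.898 in edgeR. Fgf2, basic FGF, was at 0.859, 2.25, 1.03, 0.408, 0 and 0.0617 CPM in naïve mice and at 3.60, 0, 4.76, 5.29 and 2.76 CPM in withdrawn mice. The other 4 withdrawn mice were above all naïve mice, and withdrawn mouse 2, with 0 counts, could hold up to 0.345 CPM. The Fgf2 log2 fold change was 2.08 (SE 1.2, 95% interval -0.49 to 4.65), with an unadjusted p of 0.104 and an adjusted p of 0.783 in edgeR. No mouse had more than 102 counts of Fgf2, so its fold change is imprecise. Leaving out withdrawn mice 3, 4 and 5 brought the Fgf2 value to 1.21 (unadjusted p of 0.513 in edgeR) and that of Fgf9 to -0.47.

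Fgf1, acidic FGF, which binds all FGF receptors, was at 2.04, 5.00, 4.87, 1.11, 16.9 and 5.56 CPM in naïve mice and at 5.76, 0.560, 5.28, 4.18 and 6.01 CPM in withdrawn mice. Naïve mouse 5 was the highest of all 11 and the other 10 overlapped. The log2 fold change was -0.44 (SE 0.75, 95% interval -2.06 to 1.2), with an adjusted p of 0.951 in edgeR, without naïve mouse 5 it was 0.24, and without withdrawn mice 3, 4 and 5 it was -0.92, so that Fgf1 has no stable direction in these data.

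The 3 homologous factors were the most abundant and the most even of the 10 genes. Fgf12 was at 138, 143, 140, 174, 166 and 119 CPM in naïve mice and at 141, 113, 163, 103 and 160 CPM in withdrawn mice. The groups overlapped over nearly their whole range. The log2 fold change of Fgf12 was -0.11 (SE 0.17, 95% interval -0.46 to 0.25), with an adjusted p of 0.944 in edgeR. Fgf13 was at 84.6, 108, 96.6, 79.1, 99.1 and 101 CPM in naïve mice and at 83.1, 96.5, 63.6, 75.5 and 81.9 CPM in withdrawn mice. Withdrawn mice 3 and 4 were below all naïve mice and the others were within the naïve range. The Fgf13 log2 fold change was -0.24 (SE 0.15, 95% interval -0.58 to 0.09), with an unadjusted p of 0.137 and an adjusted p of 0.816 in edgeR. Fgf14 was at 61.9, 73.5, 67.2, 50.4, 63.5 and 77.4 CPM in naïve mice and at 40.6, 62.8, 55.6, 67.3 and 74.3 CPM in withdrawn mice, again overlapping. Its log2 fold change was -0.13 (SE 0.19, 95% interval -0.53 to 0.28), with an adjusted p of 0.944 in edgeR. Without withdrawn mice 3, 4 and 5 the log2 fold changes were -0.26 for Fgf12, -0.13 for Fgf13 and -0.40 for Fgf14, and the interval of Fgf14 then reached from -1.02 to 0.21.

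**Figure D2:**
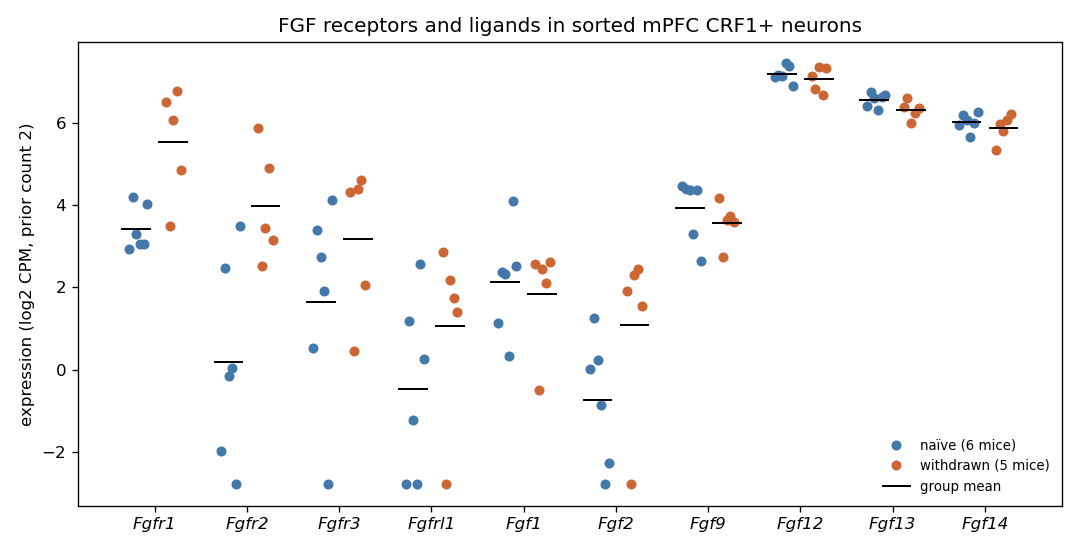
Expression of the 10 genes in each mouse, in log2 CPM with a prior count of 2. Blue points are 6 naïve mice, orange points 5 withdrawn mice and black lines group means. Fgf12, Fgf13 and Fgf14 sit highest with little spread, and points at the bottom are mice with 0 counts of the gene.

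Counted together, 5 of the 10 genes had positive and 5 negative fitted fold changes. All 4 receptors and Fgf2 were on the positive side, and Fgf1, Fgf9 and the 3 homologous factors on the negative side. Their median log2 fold change was 0.49, midway between Fgfr3 (1.10) and Fgf12 (-0.11), with no gene near it. Over the 17093 genes tested the median was 0.02 and 51.8% had positive fold changes. None was called by edgeR, which required an adjusted p no higher than 0.05 together with a change over 0.6 on the log2 scale and called 0.00585% of all genes. At an unadjusted p under 0.05, 2 of the 10 passed in edgeR, Fgfr1 and Fgfr2, against 7.22% of all genes. Of the 1234 genes under this p, 854 were higher in withdrawn mice. DESeq2 called 1 of the 10, Fgfr1, against 1.66% of the genes it tested. Of the 362 genes that DESeq2 called, 342 were higher in withdrawn mice. The groups were fully separated for 0 of the 10, against 0.948% of all genes.

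**Figure D3:**
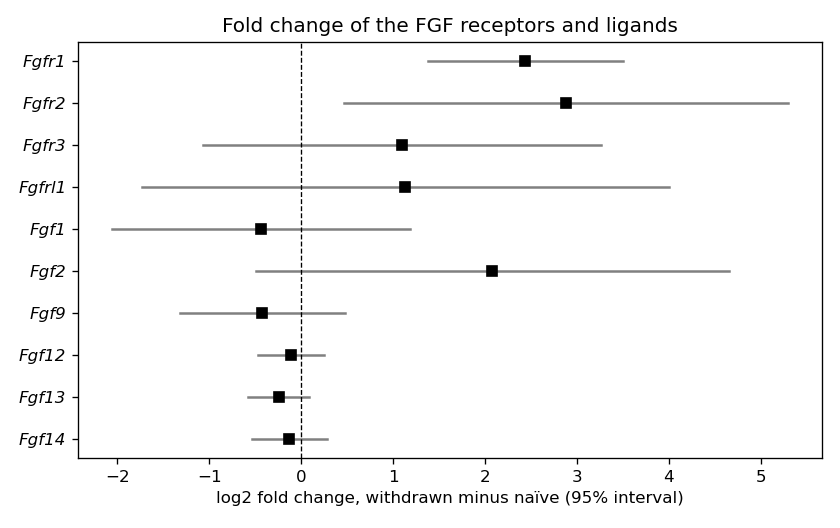
Log2 fold change, withdrawn minus naïve, of each of the 10 genes with its 95% interval from edgeR's fit (6 naïve and 5 withdrawn mice). The intervals of Fgfr1 (1.38 to 3.50) and Fgfr2 (0.47 to 5.30) lie above 0 before adjustment, and the narrow intervals of Fgf12, Fgf13 and Fgf14 include 0.

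Fibroblast markers and part of the astrocyte markers were high in the withdrawn mice with high Fgfr1. The 6 fibroblast markers summed to 3.22, 13.8, 70.9, 49.5, 0.0677 and 17.0 CPM in naïve mice 1 to 6 and to 1317, 11.4, 672, 920 and 225 CPM in withdrawn mice 1 to 5. The 4 withdrawn mice above the naïve range in this sum were those above it in Fgfr1. Of the 5 fibroblast markers tested, 5 had an unadjusted p under 0.05 in edgeR in the positive direction. Over all genes the share was 7.22% in either direction. DESeq2 called 3 fibroblast markers, and each of the 6 was at 0 in some mouse. The 8 astrocyte markers summed to 82.9 to 291 CPM in naïve mice and to 755, 77.0, 542, 832 and 333 CPM in withdrawn mice 1 to 5. Gja1 and Gjb6 carried this sum, with 3.38 to 49.3 CPM together in naïve mice and 637, 6.38, 401, 600 and 222 CPM in withdrawn mice 1 to 5. The other 6 astrocyte markers summed to 79.5 to 242 CPM in naïve and 70.6 to 233 CPM in withdrawn mice, which overlapped. Of the 7 tested, Gja1, Gjb6 and S100b had positive fold changes, all 3 with an unadjusted p under 0.05 in edgeR. The other 4 had negative fold changes, with an unadjusted p of 0.0255 for Aldoc in edgeR. Aldh1l1, Aqp4, Gfap, Gja1 and Gjb6 were each at 0 in some mouse. DESeq2 called 1 astrocyte, 1 oligodendrocyte and 1 oligodendrocyte precursor marker, all higher in withdrawn mice, against 1.66% of the genes it tested. Of its 362 calls over all genes, 342 were higher in withdrawn mice. Endothelial markers summed to 3.18 to 627 CPM in naïve and 38.2 to 481 CPM in withdrawn mice, and mural cell markers to 0.745 to 98.9 and 9.74 to 202 CPM. Oligodendrocyte precursor markers summed to 0 to 15.5 and 8.21 to 28.5 CPM, and microglial markers to 0 to 7.22 and 6.87 to 17.5 CPM, with all 6 of each list at 0 in some mouse. The 6 markers of GABAergic neurons summed to 58.0 to 261 and 21.7 to 513 CPM and those of oligodendrocytes to 109 to 249 and 98.8 to 245 CPM. At an unadjusted p under 0.05 in edgeR, 1 oligodendrocyte, 1 mural cell and 1 microglial marker were higher in withdrawn mice. Of the 5, 5 and 3 markers tested in these lists, 2, 3 and 1 had positive and 3, 2 and 2 negative fold changes. The largest log2 fold changes in these lists were 5.09, 2.74 and 3.75. The endothelial, GABAergic and oligodendrocyte sums did not single out the 4 withdrawn mice with high Fgfr1. Their part in the values of the FGF receptors was not tested.

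**Figure D4:**
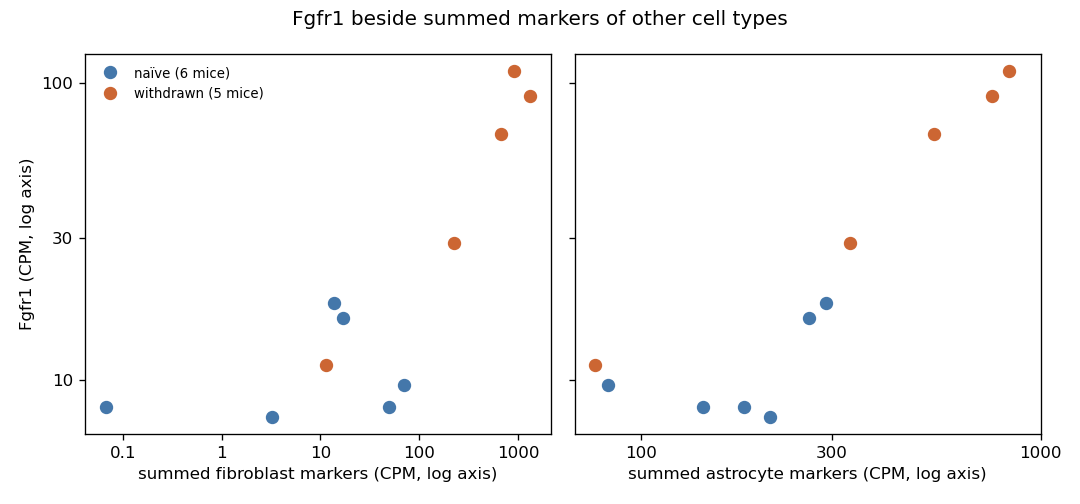
Fgfr1 level of each mouse against the summed level of 6 fibroblast markers (left) and 8 astrocyte markers (right), all in CPM on log axes, with naïve mice in blue and withdrawn mice in orange. The 4 withdrawn mice with Fgfr1 at 28.9 CPM or more are also the 4 with the highest sums of both lists, where the astrocyte sum is carried by Gja1 and Gjb6 and the other 6 astrocyte markers overlap between groups.

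Ordered by CPM per kilobase of exon, the naïve neurons held most Fgf12 and least Fgf2. Fgf12 (23.7 ± 3.26) and Fgf13 (23.6 ± 2.72, SD, n = 6) were not separated: Fgf12 was the higher in 3 of 6 naïve mice, and their order turned when levels were taken per kilobase of the longest transcript. Fgf14 followed at 15.7 ± 2.28, below Fgf13 in 6 of 6 mice, and Fgf9 at 3.58 ± 1.48, below Fgf14 in 6 of 6. Fgfr1 stood at 1.14 ± 0.470, below Fgf9 in 5 of 6 mice. Below it came Fgf1 at 1.08 ± 1.04, Fgfr3 at 0.910 ± 0.905, Fgfrl1 at 0.557 ± 0.808, Fgfr2 at 0.294 ± 0.428 and Fgf2 at 0.113 ± 0.123 per kilobase. With the longest transcript as the length, Fgfr3 came before Fgf1 and Fgfr2 before Fgfrl1. Most neighbours among these 5 did not differ beyond their spread, with Fgf1 above Fgfr3 in 2 of 6 mice, Fgfr3 above Fgfrl1 in 5, Fgfrl1 above Fgfr2 in 3 and Fgfr2 above Fgf2 in 3. In withdrawn mice Fgfr1 ranked 4 of the 10, at 6.21 ± 4.16 per kilobase, ahead of Fgf9 at 2.66 ± 0.882 (SD, n = 5). The spread between naïve mice was 11.5% to 14.5% of the mean for the 3 homologous factors and 96.0% to 146% for Fgf1, Fgfr3, Fgfrl1, Fgfr2 and Fgf2.

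The genes most like each of the 10 over the 11 mice were looked up among 10208 tested genes with a mean of at least 10 CPM, as a description on the log2 CPM scale and without a test. All points share the differences in depth and cell makeup between libraries. Fgfr1 was closest to Csrp1 (Pearson r 0.976, Spearman rho 0.909) and Itgbl1 (r 0.975, rho 0.900), and r was 0.947 and 0.953 without the 2 mice farthest from the median, withdrawn mice 4 and 1. Fgfr2 was closest to Npr3 (r 0.936) and Lima1 (r 0.927), Fgfr3 to Sstr4 (r 0.974) and Cald1 (r 0.964) and Fgfrl1 to Pid1 (r 0.972) and Cc2d2a (r 0.914). Fgf2 was closest to Zic1 (r 0.932) and Sfrp4 (r 0.928), Fgf1 to Wdfy2 (r 0.935) and Kcna3 (r 0.896) and Fgf9 to Zfp688 (r 0.921) and Cnih4 (r 0.901). For the homologous factors these were Ankrd34a (r 0.942) and Pdp1 (r 0.900) with Fgf12, Rpp25 (r 0.857) and Adora1 (r 0.854) with Fgf13, and Mtss1l (r 0.881) and Bcat1 (r 0.879) with Fgf14. Without withdrawn mouse 1 and naïve mouse 4, the values for Bcat1 and Mtss1l fell to 0.452 and 0.669. Without the 2 mice farthest from the median, r fell to 0.686 for Cnih4, 0.716 for Rpp25, 0.724 for Kcna3 and 0.740 for Adora1. For the other genes it stayed at 0.817 or more. Spearman rho was 0.664 for Wdfy2 and 0.655 for Bcat1.

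Of the other 21 genes of the FGF family, 10 passed the low-count filter, 6 with positive and 4 with negative fold changes. Of these 10, 0 had an unadjusted p under 0.05 in edgeR, against 7.22% of all genes. Among them Kl, the klotho co-receptor, was at 0.737 ± 0.552 CPM in naïve and 3.23 ± 1.95 CPM in withdrawn mice, and its log2 fold change was 2.12 (SE 1.16). Fgf22, a presynaptic organizer, was at 6.57 ± 3.06 and 11.1 ± 6.38 CPM and had a log2 fold change of 0.75, and Fgfbp3, which carries secreted FGFs, was at 11.4 ± 4.37 and 15.1 ± 4.01 CPM and had 0.41. Fgf5 was at 6.02 ± 4.82 and 3.02 ± 2.59 CPM (log2 fold change -0.98), Fgf17 at 5.18 ± 2.61 and 3.67 ± 3.29 CPM (-0.49) and Fgf10 at 4.95 ± 2.56 and 4.37 ± 2.72 CPM (-0.18). Fgf11, the remaining homologous factor, was at 1.30 ± 1.38 and 2.87 ± 4.10 CPM (1.14). Klb, Fgf18 and Fgfbp1 were below 2 CPM in both group means, with log2 fold changes of 0.13, -0.92 and 0.87.

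Of the 97 genes in the pathway lists, edgeR called 0 and DESeq2 called 3, Gpc3, Gpc6 and Shc1. Over all genes tested, the called shares were 0.00585% in edgeR and 1.66% in DESeq2. All 3 were higher in withdrawn mice, as were 342 of the 362 genes that DESeq2 called. Of 20 genes of signal transduction, 12 had positive and 8 negative fold changes, with a median log2 fold change of 0.06. The adaptor Shc1 was at 3.85 ± 2.74 CPM in naïve and 40.6 ± 25.4 CPM in withdrawn mice. Its log2 fold change was 3.39 (SE 0.85), with an adjusted p of 0.207 in edgeR and 0.00468 in DESeq2, which called it. Hras, the small GTPase, was at 129 ± 27.8 and 92.1 ± 16.5 CPM, with an unadjusted p of 0.0210 and an adjusted p of 0.530 in edgeR. Of 14 feedback inhibitors and induced targets, 3 had positive and 11 negative fold changes (median -0.25). An unadjusted p under 0.05 in edgeR was found for 0 of them, against 7.22% of all genes. The inhibitors Spry2 and Spry1 had the smallest p values of that list, with log2 fold changes of -0.96 (SE 0.45, unadjusted p of 0.0513 in edgeR) and -2.13 (SE 1.35, unadjusted p of 0.137). Spry2 was at 44.7 ± 38.5 CPM in naïve mice, with a median of 32.7 and a maximum of 122, and at 23.0 ± 6.21 CPM in withdrawn mice. Spry1 was low, at 2.76 ± 1.85 and 0.606 ± 0.786 CPM, with 0 counts in some mouse of both groups.

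Heparan sulfate genes held both pathway genes whose groups did not overlap, a pattern found in 0.948% of all genes. Of 25 tested, 18 had positive and 7 negative fold changes (median 0.26). An unadjusted p under 0.05 in edgeR was found for 3 of them, against 7.22% of all genes. Gpc3, a glypican of the cell surface, was at 1.2 to 11.2 CPM in naïve mice and 21.2 to 112 CPM in withdrawn mice. Its log2 fold change was 3.41 (SE 0.67), with an adjusted p of 0.0936 in edgeR and 6.7e-05 in DESeq2. Gpc6, another glypican, was at 10.6 to 29.6 CPM in naïve and 43.0 to 52.0 CPM in withdrawn mice. Its log2 fold change was 1.16 (SE 0.28), with an adjusted p of 0.167 in edgeR and 0.00291 in DESeq2. DESeq2 called both. Unlike Fgfr1, these glypicans were above the naïve range in withdrawn mouse 2 as well, since all 5 withdrawn mice were.

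Neither the membrane partners of the receptors nor the sodium channels, the targets of the homologous factors, had a called gene. Of 6 membrane partners, 4 had positive and 2 negative fold changes (median 0.13). L1cam, a neuronal adhesion molecule, was at 211 ± 52.7 and 157 ± 45.6 CPM, with an unadjusted p of 0.0984 in edgeR, and Flrt1, an adhesion molecule that binds FGF receptors, at 56.0 ± 14.7 and 63.4 ± 12.2 CPM. Of 9 sodium channel genes tested, 2 had positive and 7 negative fold changes (median -0.19). The channel subunit Scn2b was at 291 ± 317 CPM in naïve and 119 ± 17.8 CPM in withdrawn mice, with an unadjusted p of 0.0183 and an adjusted p of 0.501 in edgeR. Scn1a was at 53.6 ± 7.95 and 41.3 ± 10.8 CPM, with an unadjusted p of 0.107 in edgeR. The lists were picked for their place in the pathway and their counts are descriptions beside the shares of all genes given above.

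**Figure D5:**
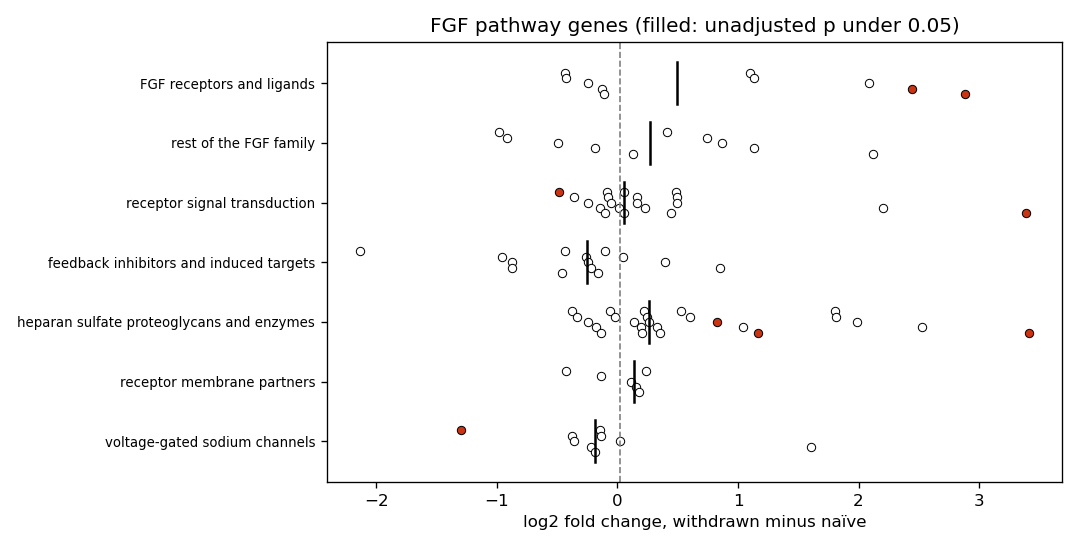
Log2 fold change, withdrawn minus naïve, of every tested gene of the FGF set and 6 pathway lists, each point a gene. Filled points have an unadjusted p under 0.05, black bars are list medians and the dashed line is the median of all 17093 genes (0.02). The filled points on the right are Fgfr1, Fgfr2, Shc1, Sdc2, Gpc6 and Gpc3.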

How the data were processed

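Adapters were removed by the authors with cutadapt, reads were aligned with STAR to the Ensembl GRCm38 genome, and HTSeq gave a read number for each gene. The deposited values are these raw counts, neither normalized nor pooled, from 1 mouse per file. Whether counting used strand is not given in the sources used here. Symbols, exons and positions come from GENCODE M21 (GRCm38), which matched 53360 of 53465 identifiers, and promoters from RefSeq. Mice were grouped by their treatment label.

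Withdrawn and naïve mice were compared with edgeR 4.0.16 in R 4.3.3 (TMM, filterByExpr with a minimum count of 10 and total of 15, quasi-likelihood test, Benjamini-Hochberg adjustment over all genes tested). Calls needed an adjusted p no higher than 0.05 and a change over 0.6 on the log2 scale. DESeq2 1.42.0, run on all genes with a count, and limma 3.58.1 (voom) were alternatives. Levels are CPM computed with TMM library sizes, with a prior count of 2 for log2 CPM. The SE is the log2 fold change divided by the root of the F statistic. The code was tested on simulated data. Over the 55 pairs of libraries, chi-square per degree of freedom was at least 25.6, so no library was a duplicate.

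The 10 genes, the pathway lists and the marker lists were chosen with earlier results of these data known. The text names all 10 genes, the genes of each pathway list that were called or else had the 2 smallest p, every tested gene of the rest of the family, and the 2 genes most like each of the 10. Sdc2, the single marker genes and Ptgdr, called over all genes, fall outside this and were chosen after their values were seen. The split of the astrocyte sum into Gja1 with Gjb6 and the other 6 markers was also made after the values were seen.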

Additional observations from a re-analysis of the deposited data

Results flagged for a closer look

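In the naïve group (n = 6), mouse 5 lay far above the others for 2 of the 10 genes. Its Fgfrl1 level was 5.82 CPM, with the next mouse at 2.14 CPM, and its Fgf1 level was 16.9 CPM, with the next at 5.56 CPM. In the same mouse Fgfr2, Fgfr3 and Fgf2 had 0 counts.

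Among the summed lists, naïve mouse 1 was low in the membrane partners of the FGF receptors, at 636 CPM with the next mouse at 820 CPM. Withdrawn mouse 4 was high in endothelial markers, at 481 CPM with the next at 144 CPM, and in mural cell markers, at 202 CPM with the next at 40.5 CPM. These values were marked by Dixon's test of the gap to the nearest mouse, which marked 5 of 52 sets of values, where chance alone marks about 2.6. No cause was tested.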

How the results depend on the processing

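Over all genes, the main count was 1 called gene (Ptgdr) of 17093 tested. It became 362 of 21849 with DESeq2 and 137 of 41907 without the low-count filter. With at least 10 counts in every mouse it was 30 of 10619. It was 0 with the replicate block and 0 without the 3 mice with conflicting labels. The count ranged from 0 to 193 when each mouse was left out in turn, with 193 of 18170 without withdrawn mouse 2. Of the 10 FGF genes, 0 were called in the main test and 1, Fgfr1, with DESeq2 and without the filter. With at least 10 counts in every mouse only Fgfr1, Fgf9, Fgf12, Fgf13 and Fgf14 were tested, and Fgfr1 was called. With a mouse left out, 0 to 1 were called (Fgfr1 without withdrawn mouse 2). Of the pathway genes, 0 became 3 with DESeq2 (Gpc3, Gpc6 and Shc1), 2 without the filter (Gpc3 and Shc1) and 1 with at least 10 counts (Gpc3), and 0 to 2 with a mouse left out. Fgf1 reversed with limma voom (0.58) and ranged from -0.66 to 0.24 with a mouse left out. The other 9 FGF genes kept their direction in every alternative run for them, and for Fgfr1 the log2 fold change stayed between 2.12 and 2.69 in 19 alternatives. The causes were not tested.

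Same-numbered mice of the 2 groups are different animals, and their deviations correlated at -0.20 to 0.18, with 1 of 5 withdrawn mice closest to its own number, so the replicate block has no basis in the design. Under the replicate block Fgfr1 was at 2.38 with an adjusted p of 0.673 in edgeR. Low depth limits Fgf2 and Fgfrl1, with at most 102 and 98 counts in any mouse.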
